A study of Mus musculus with 79 samples.

Results

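The 24 arrays described here are quadriceps arrays of BXD strains fed a high fat diet (HFD), chosen by their level of Lep, the gene of the fat cell hormone leptin. They are 24 of the 37 HFD arrays and of the 79 arrays in all. The 37 HFD arrays were ranked by Lep, and the 12 highest were set against the 12 lowest. Because the arrays were selected on Lep, its own values below are a description, and the tests concern the other genes.

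The BXD family consists of inbred mouse strains bred from C57BL/6J and DBA/2J, and every mouse was male. The HFD cohorts ate chow until the change to Harlan 06414 at 8 weeks of age, the chow (CD) cohorts ate Harlan 2018 for life, and all were killed at 29 weeks after a night without food. Both Lep groups therefore share sex, age, diet and fasting, and differ in strain. RNA of about 5 mice of a strain was pooled for each array, so a group of 12 is 12 strains, and the spread between mice of a strain was not measured. The titles give 2 batches and do not say which step of the work they mark. The high Lep group had 4 arrays in batch 1 and 8 in batch 2, and the low Lep group had 5 and 7. Both parents and BXD63 fell in the middle 13 arrays, so they are in neither group.

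Leptin is made almost wholly by white adipocytes, which secrete more of it as they fill with fat, and it acts on receptors in the brain that restrain feeding. Muscle fibres make little of it. A quadriceps sample holds, beside fibres, vessels, nerve, connective tissue and fat cells between the fibre bundles, so fat cell transcripts can be read in it. In a pooled tissue sample, fewer cells of a type and less RNA per cell cannot be told apart.

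The proximal promoters of Lep, by which the arrays were ranked, and of Adipoq, an adipocyte hormone gene with a large difference between the groups below, are shown here so that their letters can be set side by side. Sequences are from RefSeq on build GRCm38.p6 and run from 250 bases before to 50 bases after the transcription start, on the strand of transcription. Capitals mark matches to a C/EBP type motif (TTGCNNAA, both strands), a TATA box (TATAA, forward strand) and a CCAAT box (CCAAT or its reverse complement ATTGG).
Lep, chr6:29059971-29060270, plus strand: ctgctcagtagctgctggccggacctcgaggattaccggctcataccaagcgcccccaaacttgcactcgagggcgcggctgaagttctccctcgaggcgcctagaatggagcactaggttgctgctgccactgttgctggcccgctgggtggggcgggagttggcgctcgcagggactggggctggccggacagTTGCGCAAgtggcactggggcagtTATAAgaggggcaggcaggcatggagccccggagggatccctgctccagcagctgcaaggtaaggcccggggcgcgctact
Adipoq, chr16:23146286-23146585, plus strand: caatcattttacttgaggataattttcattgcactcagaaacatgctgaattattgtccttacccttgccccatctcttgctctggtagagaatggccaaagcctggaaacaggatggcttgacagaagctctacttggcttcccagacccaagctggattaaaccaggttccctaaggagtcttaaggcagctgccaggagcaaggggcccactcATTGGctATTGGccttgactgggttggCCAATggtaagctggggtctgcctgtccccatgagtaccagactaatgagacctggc

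In Lep the C/EBP type match TTGCGCAA begins 55 bases before the start and the TATAA match 31 bases before it. C/EBP proteins are transcription factors of fat cell differentiation. The Adipoq window held 3 CCAAT box matches, which begin 34, 27 and 7 bases before its start, and no C/EBP type or TATAA match. The Lep window held no CCAAT match. Of all 32851 promoters in the RefSeq table, 10.8% held the C/EBP type motif, 17.5% the TATAA motif and 37.4% the CCAAT motif. The genes called higher in the high Lep group (below) had 62 promoters for 51 genes in that table, and 11 of them (17.7%) held the C/EBP type motif, 8 (12.9%) TATAA and 17 (27.4%) CCAAT. The share with the C/EBP type motif was thus above that of all promoters, and the shares with TATAA and CCAAT were below. A match is a description of letters, and no test was made of these shares.

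Values are scores per probeset on a log-type scale, scaled so that the probesets of each array average 8 with an SD of 2. The log base is not known, so all differences are given in score units and none as folds. In the 12 high Lep arrays Lep was lowest in BXD87 (10.269), had a median of 10.651 and was highest in BXD65 (11.33). In the 12 low Lep arrays it ran from 8.097 in BXD49 through a median of 9.2315 to 9.584 in BXD83. The ranking was continuous at both edges. BXD87 lay just inside the high group, and BXD84, just outside it, had 10.241. BXD83 lay just inside the low group, and BXD90, just outside it, had 9.703. The SD was 0.372 in the high group and 0.455 in the low group.

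**Figure D1:**
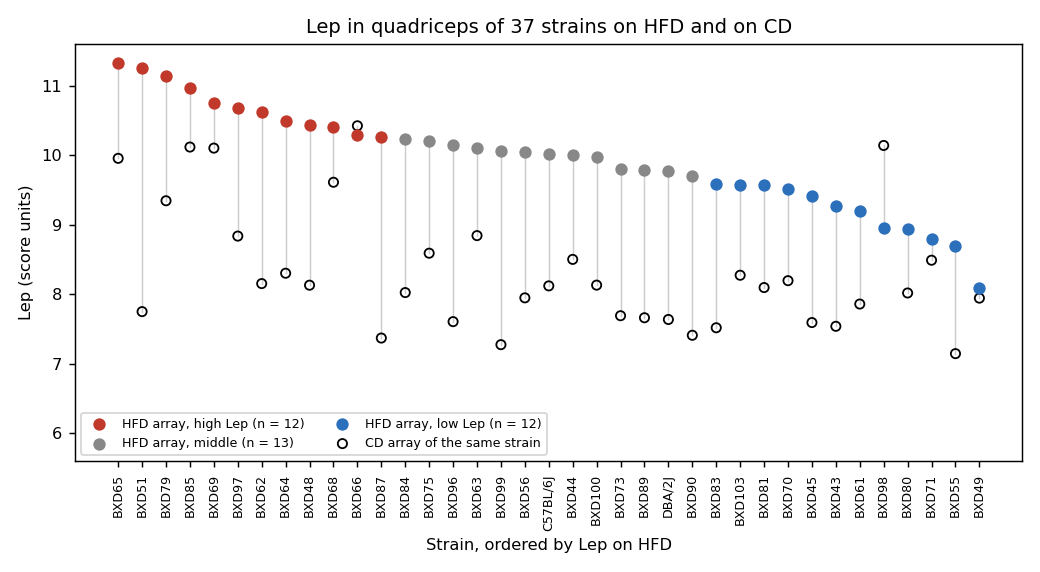
Lep on the HFD array (filled circles, in score units) and on the CD array (open circles) of each of 37 strains, ordered by Lep on HFD. The strains of the high group are in red, the middle in grey and the low group in blue, and in 35 of 37 strains the filled circle is the higher.

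The CD arrays of the same strains took no part in the ranking. Lep was higher on HFD than on CD in 35 of 37 strains, and the exceptions were BXD66 of the high group and BXD98 of the low group. On CD the 12 high Lep strains had Lep values from 7.372 to 10.424 with a mean of 9.009 ± 1.048 (SD), and the 12 low Lep strains from 7.148 to 10.141 with a mean of 8.069 ± 0.753 (SD). The ranges overlapped, and 10 of the 12 high Lep strains lay above the median of the low Lep strains. The means differed by 0.94 units (two-sided permutation test, p = 0.0207). With batch in a limma fit the difference was 0.97 ± 0.35 (SE; 95% interval 0.24 to 1.695), and it was 0.99 in batch 1 and 0.96 in batch 2. The adjusted p over all probesets was 0.998.

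Set side by side, 79 of 22331 named genes were higher in the high Lep arrays and 1 was lower (limma with batch, Benjamini-Hochberg adjusted p below 0.05), which is 0.354% and 0.00448% of the genes tested. At an unadjusted p below 0.05, 4.05% of genes were higher and 2.09% lower. Of the genes that rose, Hp, Mest, Adipoq and Cidec had the largest differences, and 7 of 18 adipocyte markers, 3 of 5 fat mass expansion genes, 3 of 12 acute phase genes and 2 of 21 macrophage and lysosome genes were among them. The lowest difference among the 79 was 0.26 units and the highest 1.42. Each p says whether a gene goes with Lep over these strains, not that Lep or leptin acts on it. Single strains moved the count, which was 49 without BXD51 and 119 without BXD48. Without BXD66 and BXD98, the 2 grouped strains with more Lep on CD than on HFD, 82 genes were higher and 3 lower.

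**Figure D2:**
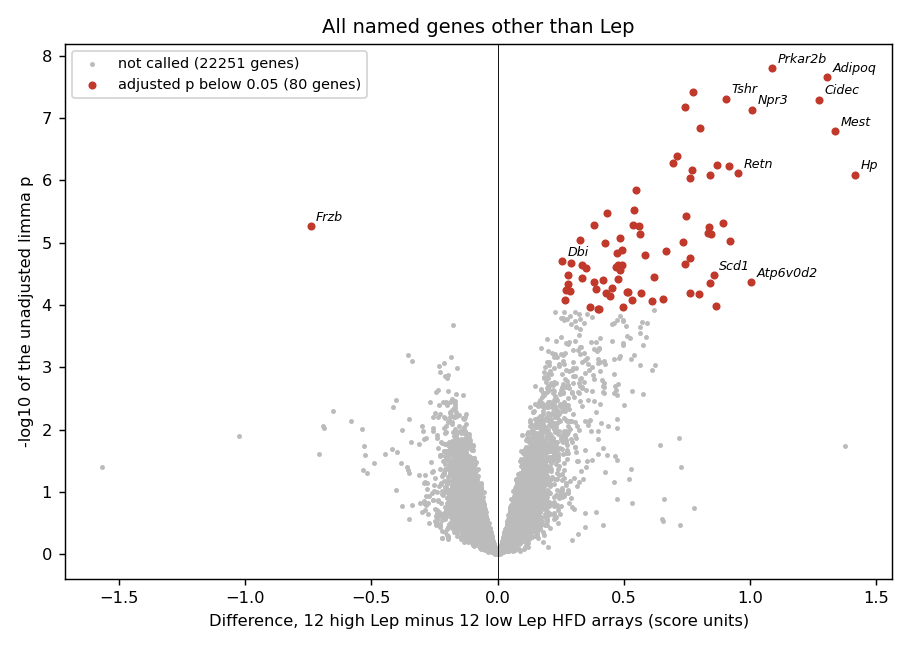
Difference between the 12 high and the 12 low Lep HFD arrays (x axis, score units) against -log10 of the unadjusted limma p (y axis), a point for each named gene other than Lep. The 80 called genes are red, 79 of them to the right of 0 and Frzb alone to the left.

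The secreted products of adipocytes come first. Adipoq encodes adiponectin, the most abundant hormone of fat cells. It ran from 10.24 through a median of 10.79 to 11.71 in the high Lep arrays and from 8.98 through 9.45 to 10.14 in the low Lep arrays. The groups did not overlap, and the difference was 1.30 ± 0.16 (SE, n = 12 and 12, limma adjusted p = 0.00036). Retn, the gene of resistin, a fat cell hormone in mice, ran from 9.87 through 10.58 to 11.38 in the high group and from 9.16 through 9.63 to 10.35 in the low group. Here the groups overlapped, with 10 of 12 high arrays above every low array, and the difference was 0.95 ± 0.15 (limma adjusted p = 0.0017).

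Lipid storage genes followed. Cidec encodes a protein that lets lipid droplets fuse and grow. Its values were 10.51 to 11.88 (median 10.84) in the high group and 8.88 to 10.37 (median 9.74) in the low group. Every high array stood above every low array, and the difference was 1.27 ± 0.16 (limma adjusted p = 0.00036). Plin1, the droplet coat protein that guards stored fat from lipases, had 9.46 to 10.48 (median 9.98) against 8.73 to 9.63 (median 9.18), a difference of 0.84 ± 0.13 (limma adjusted p = 0.0017), with 10 of 12 high arrays above all low arrays. Lipe, the hormone-sensitive lipase, and Mgll, the monoglyceride lipase, which release that fat, were higher by 0.40 each, near the threshold (limma adjusted p = 0.049 for both).

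Mest is an imprinted gene whose level in white fat is known to track the growth of fat mass. It ran from 9.34 through 10.08 to 11.47 in the high Lep arrays and from 8.41 through 8.82 to 9.18 in the low Lep arrays. The groups did not overlap, and the difference was 1.34 ± 0.19 (limma adjusted p = 0.00064). Npr3, the clearance receptor that takes up natriuretic peptides, ran from 9.78 through 10.26 to 10.97 in the high group and from 8.76 through 9.30 to 9.68 in the low group. It did not overlap either, with a difference of 1.01 ± 0.13 (limma adjusted p = 0.00037). Sfrp5, a secreted Wnt antagonist of fat cells, was 8.72 to 9.34 against 8.38 to 8.96. The difference of 0.39 ± 0.08 passed (limma adjusted p = 0.031), and it still passed in 12 of the 24 fits that left out an array. The other 2 genes of the fat mass expansion list, Bmp3 (0.17) and Egfl6 (-0.05), were not called. The mean level of the 5 genes was above every low Lep array in 12 of 12 high Lep arrays.

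Prkar2b, a regulatory subunit of protein kinase A that is abundant in fat and brain, had the smallest p of all genes. It ran from 9.03 through 9.69 to 10.14 in the high group and from 8.11 through 8.49 to 9.12 in the low group, with 1 low array among the lowest high arrays. The difference was 1.09 ± 0.13 (limma adjusted p = 0.00036). Other genes of hormone and cyclic AMP signalling that were called are named here after their values were seen. Tshr, the thyrotropin receptor, was 7.97 to 9.03 against 7.19 to 7.94 and higher by 0.91 ± 0.12 (limma adjusted p = 0.00036). Pde3b, the phosphodiesterase through which insulin restrains lipolysis, was higher by 0.77, Mc2r, the corticotropin receptor, by 0.75, Gnai1, an inhibitory G protein subunit, by 0.67, Sucnr1, the succinate receptor, by 0.43, Ptger3, a prostaglandin E2 receptor, by 0.43 and Adcy5, an adenylyl cyclase, by 0.28.

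Groups that did not overlap, with all 12 high arrays above all 12 low arrays, were found for 7 genes, 0.0313% of those tested. They were Adipoq, Cidec, Mest, Npr3, Tshr, Aoc3 and Fads3, of which the last 2 were also named after their values were seen. Aoc3, a cell surface amine oxidase of adipocytes and vessels, was higher by 0.87 ± 0.13 (limma adjusted p = 0.0016). Fads3, of the fatty acid desaturase family, was higher by 0.74 ± 0.10 (limma adjusted p = 0.00037).

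**Figure D3:**
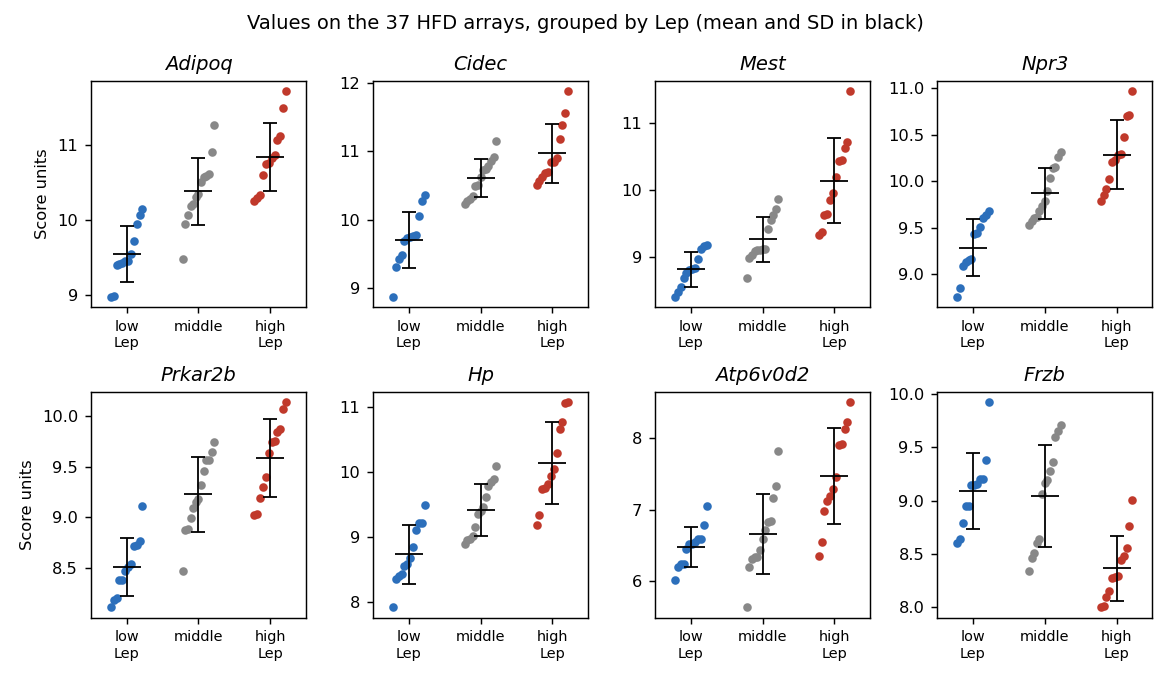
Score of 8 genes on the 37 HFD arrays, a point for each array, by Lep group (12 low in blue, 13 middle in grey, 12 high in red), with the mean and SD in black. Adipoq, Cidec, Mest and Npr3 show no overlap between the low and high groups, and Frzb runs the other way.

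Fat synthesis genes gave 2 calls of 16. Scd1, which desaturates newly made fatty acids, ran from 12.63 through 13.56 to 13.78 in the high Lep arrays and from 11.86 through 12.46 to 13.41 in the low ones. The groups overlapped, with 7 high arrays above all low ones, and the difference was 0.86 ± 0.17 (limma adjusted p = 0.022, lost in 1 of the 24 fits that left out an array). Fasn, the fatty acid synthase, differed by 0.48 ± 0.10 (limma adjusted p = 0.024, lost in 4 of those 24 fits). The median difference of the 16 genes was 0.14, and 6 had an unadjusted p below 0.05, all higher. The transcription factors Srebf1 (-0.01) and Mlxipl (-0.05), which drive this pathway, were not called. Car5b, a mitochondrial carbonic anhydrase, was higher by 0.92 ± 0.14 (limma adjusted p = 0.0016), from 8.47 to 9.84 against 7.64 to 8.64. Named after their values were seen, the citrate carrier Slc25a1 was higher by 0.49, the dicarboxylate carrier Slc25a10 by 0.34 and G6pdx, the first enzyme of the pentose phosphate pathway, by 0.55. G6pd2 was called too (0.28), but it is a near-identical copy of G6pdx, so its probeset may read both.

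Of the 18 adipocyte markers 7 were called higher (Adipoq, Cidec, Retn, Plin1, Tusc5, Acvr1c and Lipe), 0 were lower and all 18 had a difference above 0, with a median of 0.40. Over all named genes the median was -0.01 and 46.2% lay above 0. Beside Adipoq, Cidec, Retn and Plin1, the list held Tusc5, a protein of insulin-driven glucose transporter traffic, at 0.71 and Acvr1c, an activin receptor of fat cells, at 0.42. Pparg (0.26) and Cebpa (0.23), the master regulators of fat cell formation, and Fabp4 (0.40), the fatty acid binding protein, had an unadjusted p below 0.05 and were not called. The mean level of the 18 genes was 9.70 to 10.26 in the high Lep arrays and 9.13 to 9.84 in the low Lep arrays, with 8 of 12 high arrays above all low ones. The middle arrays lay between 9.52 and 10.05.

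This marker mean moved with Lep, so the comparison was also made with it as a covariate. The markers hold 7 of the called genes themselves. With that term 0 genes were called in either direction, 16 of the 79 had an unadjusted p below 0.05, as did 1029 of all 22331 named genes (4.61%), and the median difference of the 79 was 0.16 against 0.57 without it. Those 16 included Atp6v0d2 (0.74), Hp (0.68), Mmp12 (0.65), Adipoq (0.37) and Prkar2b (0.37). Of the 79, 5 fell below 0 with the term, namely S100a11 (-0.06), Sncg (-0.05), Orm1 (-0.05), Nnat (-0.03) and Lipe (-0.01), none beyond its error. Frzb was -0.69 ± 0.22 (SE) with the term and -0.74 ± 0.13 without it. The marker mean differed between the groups, so the term also widened the errors of Frzb, Mmp12 and other genes. The loss of calls by itself therefore does not measure how far the differences shrank. What share of the differences goes with the number of fat cells in the sample and what share with their content was not tested.

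Adipocyte genes known to be low in the fat of obese mice were 0 of 4 called, where 0.354% of all named genes were called higher. All 4 differences lay above 0, with a median of 0.25, and 2 of them, Car3 and Cyp2e1, had an unadjusted p below 0.05. Cfd, the protease adipsin, ran from 8.46 through 9.42 to 10.32 in the high group and from 8.82 through 9.02 to 9.69 in the low group. Its difference was 0.28 ± 0.16 (limma adjusted p = 0.94), and the groups overlapped. Cyp2e1 differed by 0.64 ± 0.25 (limma adjusted p = 0.70), Car3 by 0.22 ± 0.07 (limma adjusted p = 0.36) and Adrb3, the fat cell adrenergic receptor, by 0.05 ± 0.06 (limma adjusted p = 0.95).

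Brown adipocyte genes were 0 of 6 called, where 0.354% of all named genes were called higher, with a median difference of 0.06. Ucp1, the uncoupling protein that defines brown fat, lay between 6.351 and 6.604 in 11 of the high Lep arrays and at 9.17 in BXD66. It lay between 6.13 and 6.66 in 11 of the low Lep arrays and at 8.68 in BXD55. The parental strain DBA/2J, in the middle group, had 9.94, and its Cidea value of 8.84 was the highest of all 37. These arrays stood far from the rest in Ucp1, but they lay in all 3 ranges of Lep.

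Macrophage and lysosome genes were called higher in 2 of 21, and 16 of the 21 had an unadjusted p below 0.05, all higher. Atp6v0d2, a proton pump subunit of macrophages and osteoclasts, ran from 6.36 through 7.37 to 8.51 in the high group and from 6.02 through 6.52 to 7.04 in the low group. The spread was wider in the high group, with 9 of its arrays above all low ones. The difference was 1.003 ± 0.20 (limma adjusted p = 0.026, kept in 17 of the 24 fits that left out an array). Mmp12, the macrophage elastase, was 7.91 to 9.23 against 7.16 to 8.40, a difference of 0.92 ± 0.17 (limma adjusted p = 0.0096). Cd68 (0.62), Gpnmb (0.72), Ctss (0.42), Lyz2 (0.42) and Emr1 (0.42), which encodes the F4/80 antigen, were not called. The median difference of the list was 0.24, and its mean level was above all low Lep arrays in 8 of the 12 high Lep arrays. The myeloid genes Lgals3 (0.74), Clec12a (0.52), Igsf6 (0.48), Ccl9 (0.45) and Cd300ld (0.45) were called as well and were named after their values were seen. Ear2 and Ear10 (0.80 and 0.61) are near-identical ribonuclease genes, so their probesets may not tell them apart.

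Acute phase genes were called higher in 3 of 12. In this list 5 had an unadjusted p below 0.05, all higher, 10 of 12 differences lay above 0 and the median was 0.24. Hp, which encodes the haemoglobin-binding protein haptoglobin and is expressed in liver and fat, had the largest difference of all called genes. It ran from 9.19 to 11.08 in the high group (mean 10.14) and from 7.92 to 9.50 in the low group (mean 8.74), and 10 of 12 high arrays stood above all low ones. The difference was 1.42 ± 0.22 (limma adjusted p = 0.0017). Serpina3n, a secreted protease inhibitor, differed by 0.87 ± 0.19 (limma adjusted p = 0.047, kept in 6 of the 24 fits that left out an array). Orm1, an acute phase carrier protein with close copies, differed by 0.76 ± 0.16 (limma adjusted p = 0.032, kept in 11 of 24). Its difference was -0.05 with the adipocyte marker mean as a covariate. Saa1 (0.05) and Saa2 (0.01), the serum amyloids of liver, showed no difference beyond their error.

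Connective tissue genes gave 1 call of 17, Postn, the matrix protein periostin, higher by 0.57 ± 0.12 (limma adjusted p = 0.032, kept in 10 of 24). In this list 9 genes had an unadjusted p below 0.05, all higher, among them Lox (0.50) and Sparc (0.35), and the median difference was 0.14. The endothelial list gave 0 of 12 with a median of 0.01. Schwann cell (0 of 8, median 0.01), lymphocyte (0 of 8, median -0.05) and red blood cell genes (0 of 8, median -0.08) were likewise without a call. In those 3 lists and the endothelial list no gene had an unadjusted p below 0.05. At the shares called over all named genes (0.354% higher, 0.00448% lower), most lists of this size would hold no call.

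**Figure D4:**
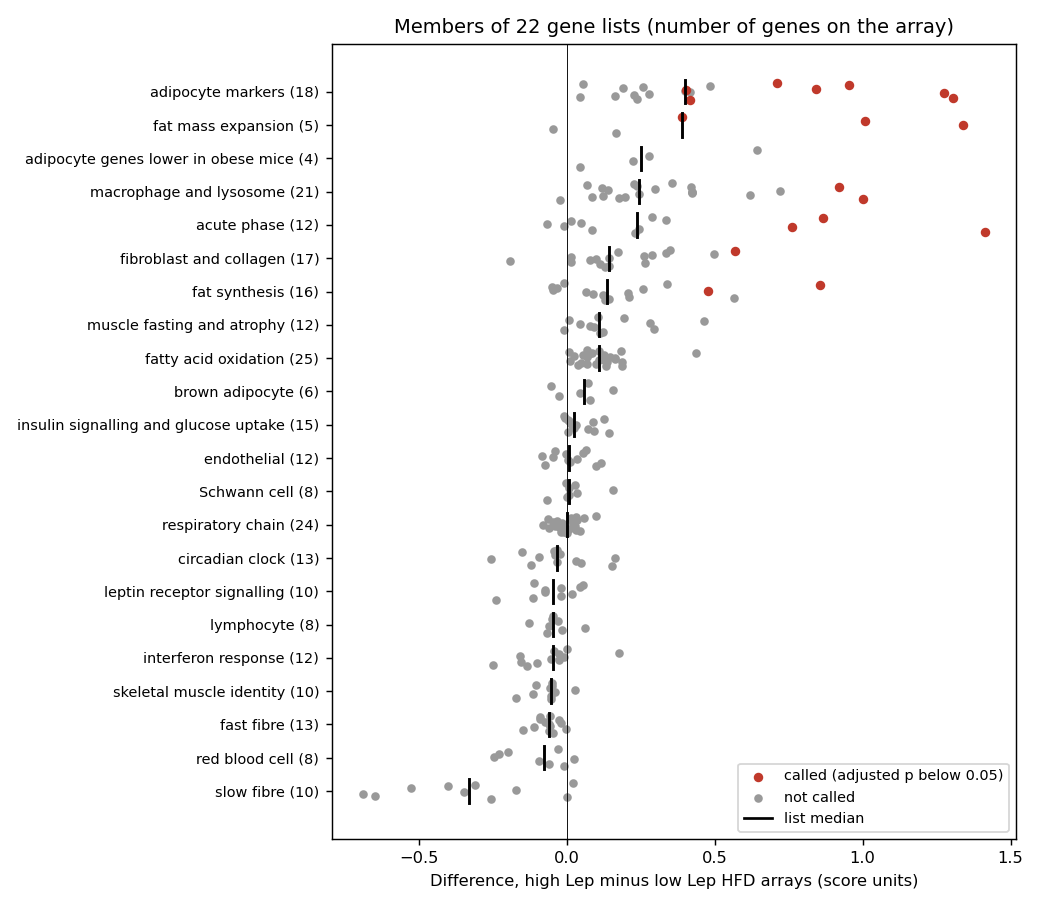
Difference of each member of 22 gene lists between the high and low Lep HFD arrays (x axis, score units), with called genes in red, the others in grey and the list median as a black bar. Called genes lie in 6 lists (adipocyte markers, fat mass expansion, fat synthesis, macrophage, acute phase and connective tissue), and the slow fibre list has the lowest median, -0.33.

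The genes of the muscle fibres showed no call. Of all named genes 0.354% were called higher and 0.00448% lower, so most lists this short would hold none. The samples were muscle throughout, with Acta1, the sarcomere actin, between 14.98 and 15.31 on the 24 arrays. Slow fibre genes were 0 of 10 called, with a median of -0.33, and 3 had an unadjusted p below 0.05, all lower. Of the 10, 2 had a difference above 0, where 46.2% of all named genes did. Myh7, the slow myosin heavy chain, ran from 7.95 through 8.96 to 9.98 in the high group and from 8.80 through 9.65 to 10.41 in the low group. The groups overlapped, and the difference was -0.65 ± 0.21 (limma adjusted p = 0.43). Myl2 differed by -0.69 ± 0.24 (limma adjusted p = 0.56). Fast fibre genes (0 of 13, median -0.06) and general muscle genes (0 of 10, median -0.05) had small differences, with 1 and 2 of them at an unadjusted p below 0.05, all lower. Differences above 0 were found for 0 of the 13 fast fibre genes and 1 of the 10 general muscle genes.

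Muscle energy genes were also without a call. Of all named genes 0.354% were called higher and 0.00448% lower, so most lists of this size would hold none. In fatty acid oxidation 0 of 25 were called. All 25 differences lay above 0, where 46.2% of all named genes did, with a median of 0.11 and 4 at an unadjusted p below 0.05. Cpt1b, the muscle carnitine palmitoyltransferase, differed by 0.01 ± 0.05 (limma adjusted p = 0.99). In the respiratory chain 0 of 24 were called and the largest difference was 0.10. Insulin signalling and glucose uptake gave 0 of 15, with a median of 0.02, and the muscle glucose transporter Slc2a4 differed by -0.01. Muscle fasting and atrophy genes (0 of 12, median 0.11), interferon response genes (0 of 12, median -0.05) and clock genes (0 of 13, median -0.03) were not called.

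The receptor side of leptin was read in the same arrays. Leptin signals through Lepr, the kinase Jak2 and the transcription factor Stat3, whose target Socs3 shuts the signal off. Lepr ran from 6.72 through 7.35 to 7.83 in the high group and from 6.86 through 7.30 to 7.57 in the low group, with a difference of -0.02 ± 0.11 (limma adjusted p = 0.99). Jak2 differed by -0.12 ± 0.08, Stat3 by 0.05 ± 0.05 and Socs3 by -0.02 ± 0.08. None of the 10 genes of the list was called or had an unadjusted p below 0.05, and the median difference was -0.05. Over all named genes 0.354% were called higher and 0.00448% lower.

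The only gene called lower was Frzb, which encodes a secreted Wnt-binding protein of connective tissue. It ran from 8.00 through 8.29 to 9.01 in the high Lep arrays and from 8.61 through 9.15 to 9.92 in the low Lep arrays. The groups overlapped at their edges, with 10 of 12 high arrays below all low ones. The difference was -0.74 ± 0.13 (limma adjusted p = 0.0068), and it was -0.91 in batch 1 and -0.64 in batch 2. It kept its call in all 24 fits that left out an array.

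The direction of the calls was the same in both batches. All 79 genes called higher were higher within batch 1 and within batch 2, and their lowest differences were 0.22 and 0.19. The genes were called on these same arrays together, so this is a description and no separate evidence. By itself, each batch gave 0 genes at the adjusted threshold of limma and 744 (batch 1) or 1115 (batch 2) of all named genes at an unadjusted p below 0.05. As a measure of unspecific signal, the mean of 1154 olfactory receptor probesets was 5.92 to 6.16 in the high group and 5.99 to 6.10 in the low group. The array medians were 7.78 to 7.90 and 7.80 to 7.90, and no 2 HFD arrays held the same values.

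The called genes were then read on the CD arrays of the same 24 strains. Of all named genes 0 (0%) were called at an adjusted p below 0.05 by limma there, and 1.93% were higher at an unadjusted p below 0.05. Of the 79 genes, 74 were higher in the high Lep strains on CD, where 54.4% of all genes were, and 11 had an unadjusted p below 0.05. Their median difference was 0.13 on CD and 0.57 on HFD. The 79 were picked by their differences on the HFD arrays, so a larger difference there is partly due to that choice. The comparison of the 2 medians therefore does not measure an effect of diet. All were read on the same 24 CD arrays, so they are not 79 independent observations. Hp was higher by 0.59 ± 0.26 on CD, Serpina3c, a secreted protease inhibitor named after its values were seen, by 0.39 ± 0.10, Prkar2b by 0.38 ± 0.17, Mest by 0.37 ± 0.20 and Adipoq by 0.26 ± 0.21. The 5 below 0 on CD were Scd1 (-0.17), Atp6v0d2 (-0.11), Ifi27l2a (-0.11), Ccl9 (-0.10) and Clec12a (-0.05). For Atp6v0d2 this sign rests on 1 array. BXD98 had 8.064, and the other low Lep strains had at most 6.035, which is below their group mean of 6.05. BXD98 also had the highest CD value of the low Lep strains for Ccl9 (9.016) and Clec12a (7.96). No CD difference without BXD98 is given here. Frzb was lower on CD too, by 0.55 units with an SE of 0.18 and an unadjusted limma p of 0.0046 (adjusted p not below 0.05).

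**Figure D5:**
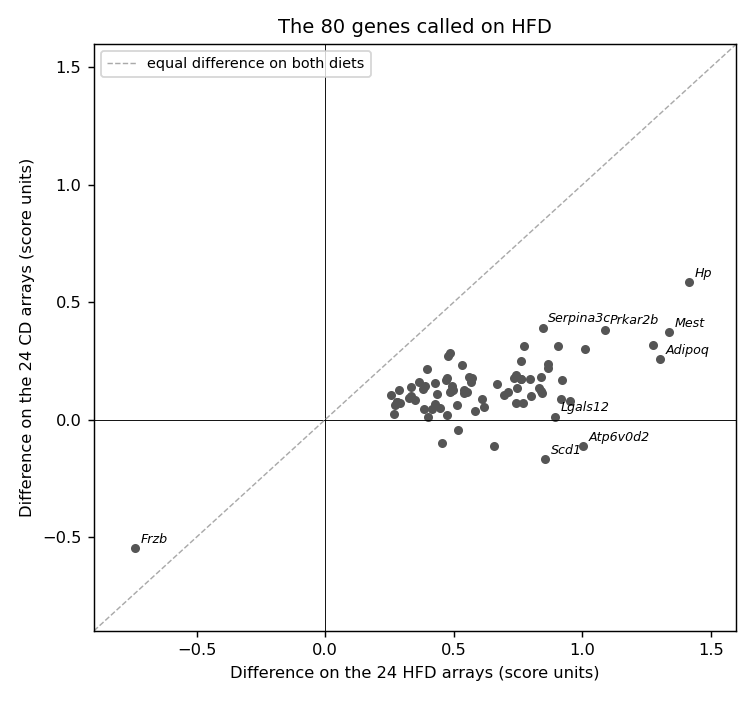
Difference between high and low Lep strains on the 24 HFD arrays (x axis) and on the 24 CD arrays (y axis), in score units, for the 80 genes called on HFD. The 79 genes called higher lie below the dashed line of equal difference, and Frzb is below 0 on both diets (-0.74 and -0.55). The genes were called on the HFD arrays, which by itself favours larger differences there.

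The change with diet within a strain was set between the Lep groups as well, in a fit added after the data were seen. It uses the same HFD arrays that formed the groups, so it is no separate evidence. The HFD minus CD change was larger in the high Lep strains for all 79 genes and for 44.5% of all named genes. It passed for 5 of 22331 named genes at an adjusted p below 0.05 (0.0224%) and for 5.4% at an unadjusted p below 0.05, of which 78 were among the 79. Without the batch terms it passed for 0 genes. Adipoq was higher on HFD than on CD in 11 of the 12 high Lep strains and in 3 of the 12 low Lep strains. Retn was higher in 10 and in 3, Scd1 in 11 and in 4, and Car5b in 11 and in 2. Mest was higher on HFD in 12 of 12 and in 11 of 12, so for it both groups moved the same way. For Frzb the counts were 8 and 9.

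The 13 middle HFD arrays were used in neither group, and Lep spans only 9.703 to 10.241 over them. With Lep as a number, limma called 0 genes there at an adjusted p below 0.05, and 1.73% of named genes rose with Lep at an unadjusted p below 0.05. Of the 79 genes 55 had a slope above 0, where 52.7% of all genes did, and 2 of them, Serpina3n and Nnmt, a nicotinamide methyltransferase of fat and liver, had an unadjusted p below 0.05. The genes were read on the same 13 arrays, so they are not 79 independent observations. For Frzb the slope was -1.31 ± 0.68 score units per unit of Lep (limma, unadjusted p = 0.076).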

How the data were processed

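RNA of male BXD quadriceps was read on Affymetrix Mouse Gene 1.0 ST arrays. The values deposited by the authors are a score per probeset, and the submitters' processing notes name Affymetrix Expression Console. Summarization, background, log base and any batch correction are not given in the sources used here. The precision is limited by the number of arrays, since they have no counts behind them. The table holds 35556 probesets, of which 26215 had a gene symbol. For a gene with several, the probeset of highest mean was used. Current symbols numbered 18782 and older names 2419 in a RefSeq table of GRCm38.p6, and 1130 matched neither. That table also gave the promoter sequences.

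The HFD arrays were ranked on the Lep probeset, and the 12 highest and 12 lowest were compared with limma 3.58.1 (R 4.3.3, lmFit and eBayes) with batch as a term, over all probesets other than Lep. p-values were adjusted over all of them (Benjamini-Hochberg, threshold 0.05). The CD arrays of the same strains and the middle HFD arrays were fitted in the same way. The Lep means on CD were compared by a two-sided permutation test (100000 resamples). The fits were tested on simulated data. The permutation test ran in scipy 1.17.1 with Python 3.11.15, and plots were drawn in matplotlib 3.10.9.

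The members and the gene lists were chosen with earlier results of these data known. Genes named were the 10 with the largest called difference in each direction, Adipoq, Plin1, Cfd, Adrb3, Cyp2e1, Mest, Sfrp5, Lepr, Ucp1 and Hp, and of each list up to 4 called members or the first 3. All other genes were named after their values were seen. The alternatives were the batch term, each batch alone, other group sizes, Lep as a number, each array left out, the methods' t-test, other scalings, filters and covariates. The HFD minus CD fit and the fit without BXD66 and BXD98 were added after the data were seen.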

Additional observations from a re-analysis of the deposited data

Results flagged for a closer look

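The HFD minus CD change differed between the Lep groups for 5 genes by a test of the difference itself (limma with the batches of both arrays as terms, adjusted p below 0.05), a fit added after the data were seen. Lgals12, a galectin of fat cells, changed by 0.96 units more in the high Lep strains (SE 0.149, adjusted p = 0.0168), with a group difference of 0.894 on HFD and 0.0116 on CD. Car5b, the mitochondrial carbonic anhydrase, changed by 0.906 more (SE 0.132, adjusted p = 0.0137), with 0.918 on HFD and 0.0878 on CD. Slc1a5, a glutamine transporter, changed by 0.758 more (SE 0.113, adjusted p = 0.0137), with 0.8 on HFD and 0.102 on CD. Ccl9, a chemokine of macrophages, changed by 0.576 more (SE 0.0963, adjusted p = 0.0326), with 0.453 on HFD and -0.102 on CD. Among the low Lep strains on CD, Ccl9 was highest in BXD98 (9.016), followed by BXD70 (8.807), and the CD value without BXD98 is not given here. Fah, the last enzyme of tyrosine breakdown, changed by 0.567 more (SE 0.0965, adjusted p = 0.0326), with 0.733 on HFD and 0.175 on CD. On HFD, Lgals12 was above its CD value in 11 of 12 high Lep and 3 of 12 low Lep strains, Slc1a5 in 12 and 6, and Fah in 12 and 5. The HFD arrays of this fit also formed the groups, and without the batch terms 0 genes passed it.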

How the results depend on the processing

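The 79 genes called higher, the 1 called lower and the 18 calls among list members were recomputed under each alternative. Batch 1 alone and batch 2 alone each gave 0 higher, 0 lower and 0 list members, with 744 and 1115 named genes at an unadjusted p below 0.05 by limma. With the adipocyte marker mean as a covariate the counts were 0, 0 and 0 (1029 at an unadjusted p below 0.05 by limma), and 5 genes called higher turned below 0 (S100a11 -0.06, Sncg -0.05, Orm1 -0.0478, Nnat -0.03 and Lipe -0.01). That term also widened the errors of some genes, so these counts alone do not measure how far the differences shrank. With Lep as a number over 37 arrays they were 228, 9 and 31. Lower calls were 3 with Lep ranked within batch means and without BXD66 and BXD98, and 2 with 18 arrays a group, the methods' t-test, limma-trend or no dim probesets. The methods' t-test had 997 genes higher and 567 lower at p below 0.05, and 64 and 2 after Benjamini-Hochberg. Leaving out 1 array gave 49 (BXD51) to 119 (BXD48) higher, 1 to 3 lower (2 without BXD66, 3 without BXD87 or BXD81) and 9 (BXD51) to 23 (BXD87) list members, with 10 without BXD49 and 11 without BXD85; list members called lower were 0 to 0. The count of 5 in the HFD minus CD fit was 0 without batch terms. Of the 80 genes, 80 were called without the batch term or with limma-trend, 79 with Lep as a number, 77 after quantile normalization, 75 with median centring or ranking within batch, 63 by the t-test, 58 with 9 arrays a group or the olfactory receptor covariate, and 50 with 18. BXD63 and the parents are in neither group, so leaving them out changed nothing. Calls on CD and on the middle arrays were 0 under each alternative run for them. The cause of these changes was not tested. No paired analysis was possible because the high and low Lep groups hold different strains, so no array of the one matches an array of the other. The labels pair the HFD and CD arrays of a strain, and the HFD minus CD fit uses that pairing.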
